A study of Mus musculus with 4 samples.

Results

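The genes described here are 10 markers of the cellular response to protein-folding and nutrient stress, chosen by gene symbol from the 27267 genes of the deposited tables. They form 2 sets of 5. Atf3, Atf4, Ddit3, Trib3 and Asns belong to the axis of the transcription factor ATF4, and Hspa5, Hsp90b1, Xbp1, Dnajb9 and Herpud1 are chaperones and other genes of the endoplasmic reticulum (ER) and its unfolded protein response (UPR). All 10 were found, and all 10 passed the minimum mean of 1 CPM (counts scaled to library size, with TMM factors) that left 13502 genes for comparison. RNA had been sequenced from heart muscle cells isolated from newborn CD1 mice on postnatal day 1 and kept in culture. The 4 conditions were the mimic hsa-miR-199a-3p, the mimic hsa-miR-590-3p, cel-miR-67, a nematode microRNA used as control mimic, and mock transfection. Each mimic was used at 50 nM in a reverse transfection with a lipid reagent, and cells were collected at 72 h. Every condition is represented by 1 library, so no difference has a replicate check and no test of significance was possible.

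In the integrated stress response, kinases that sense amino acid shortage, haem lack, double-stranded RNA or misfolded ER protein phosphorylate the translation factor eIF2. Most translation then slows while the ATF4 mRNA is translated better, and ATF4 activates genes of amino acid supply together with Atf3, Ddit3 and Trib3. In the unfolded protein response, the sensors PERK, IRE1 and ATF6 sit in the ER membrane. PERK is one of the eIF2 kinases, IRE1 splices the Xbp1 mRNA, and ATF6 is cut to release a factor that raises chaperone genes such as Hspa5 and Hsp90b1. Heart muscle cells secrete hormones and hold a calcium store related to the ER, and both pathways are known to be engaged in the heart under ischaemia and overload. Read counts show the amount of each mRNA, and neither eIF2 phosphorylation, Xbp1 splicing nor protein is measured by them.

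Promoter motifs known from these pathways separate the 2 sets in part, and the windows that hold one are printed so that the motifs can be seen in place. Sequences are RefSeq promoter windows of build GRCm38.p6, from 250 bases before to 50 bases after the annotated start, read 5′ to 3′ on the gene's strand, and all 10 genes had one. Searched on both strands were the ER stress response element (ERSE), through which ATF6 and NF-Y act and which is CCAAT followed after 9 bases of any kind by CCACG, its shorter relative ERSE-II, which is ATTGG followed after 1 base by CCACG, and the C/EBP-ATF response element (CARE), TGATGNAA, which ATF4 binds with C/EBP partners. CCAAT and CCACG lie inside the ERSE, and the ERSE-II holds CCACG and, on its other strand, CCAAT. Capitals mark ERSE, ERSE-II and CARE matches on either strand. The ERSE set comprised Hspa5 at chr2:34771840-34772139 (+ strand) and Hsp90b1 at chr10:86705395-86705694 (- strand), and Herpud1 at chr8:94386179-94386478 (+ strand) held an ERSE-II and a CARE.
Hspa5: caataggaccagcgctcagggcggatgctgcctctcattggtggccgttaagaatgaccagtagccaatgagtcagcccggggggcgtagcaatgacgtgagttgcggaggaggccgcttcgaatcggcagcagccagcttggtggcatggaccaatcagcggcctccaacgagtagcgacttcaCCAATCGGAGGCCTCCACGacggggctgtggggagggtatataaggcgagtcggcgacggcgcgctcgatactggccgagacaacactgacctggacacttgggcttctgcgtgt
Hsp90b1: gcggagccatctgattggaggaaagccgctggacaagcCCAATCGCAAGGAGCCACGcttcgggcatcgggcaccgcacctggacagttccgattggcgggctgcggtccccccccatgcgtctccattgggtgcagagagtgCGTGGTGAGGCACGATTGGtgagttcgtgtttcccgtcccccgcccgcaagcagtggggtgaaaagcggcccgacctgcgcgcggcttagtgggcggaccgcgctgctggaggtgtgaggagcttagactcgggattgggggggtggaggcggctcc
Herpud1: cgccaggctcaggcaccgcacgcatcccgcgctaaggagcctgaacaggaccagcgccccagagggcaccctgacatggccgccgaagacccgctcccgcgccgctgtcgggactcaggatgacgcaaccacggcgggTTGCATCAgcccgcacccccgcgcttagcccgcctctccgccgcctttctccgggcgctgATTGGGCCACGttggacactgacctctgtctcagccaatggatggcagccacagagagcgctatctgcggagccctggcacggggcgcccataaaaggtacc
The CARE set comprised Asns at chr6:7693160-7693459 (- strand), Atf3 at chr1:191183284-191183583 (- strand) and Trib3 at chr2:152344011-152344310 (- strand).
Asns: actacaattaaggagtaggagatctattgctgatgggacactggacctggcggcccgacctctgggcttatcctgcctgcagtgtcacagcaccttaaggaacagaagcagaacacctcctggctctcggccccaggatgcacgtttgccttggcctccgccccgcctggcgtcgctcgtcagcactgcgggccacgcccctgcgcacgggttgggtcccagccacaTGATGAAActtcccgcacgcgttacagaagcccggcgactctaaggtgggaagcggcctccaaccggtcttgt
Atf3: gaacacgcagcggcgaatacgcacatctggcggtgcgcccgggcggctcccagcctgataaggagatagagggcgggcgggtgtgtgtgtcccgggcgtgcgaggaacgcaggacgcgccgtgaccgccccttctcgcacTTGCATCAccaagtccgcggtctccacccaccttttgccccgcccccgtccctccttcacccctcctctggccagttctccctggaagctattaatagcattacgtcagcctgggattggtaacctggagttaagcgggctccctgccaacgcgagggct
Trib3: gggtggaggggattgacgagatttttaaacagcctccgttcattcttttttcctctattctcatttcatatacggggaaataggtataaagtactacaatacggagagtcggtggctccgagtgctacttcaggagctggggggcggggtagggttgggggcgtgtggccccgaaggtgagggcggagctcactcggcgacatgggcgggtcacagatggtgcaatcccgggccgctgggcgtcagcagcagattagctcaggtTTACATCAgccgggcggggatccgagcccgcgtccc

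The ERSE of Hspa5 lay at -65 to -47 from the start, and those of Hsp90b1 lay at -212 to -194 and, on the opposite strand, at -107 to -89. Herpud1 had its ERSE-II at -52 to -42 and its CARE at -112 to -105. Among ATF4-axis genes, the CARE match lay at -23 to -16 in Asns, at -110 to -103 in Atf3 and, beyond the start, at 15 to 22 in Trib3. Over all 32851 promoter windows of this length, 0.119% held an ERSE, 0.0365% an ERSE-II and 3.97% a CARE. Windows of Atf4, Ddit3, Xbp1 and Dnajb9 held none of these 3 motifs, which says only that these letters are not in them.

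**Figure D1:**
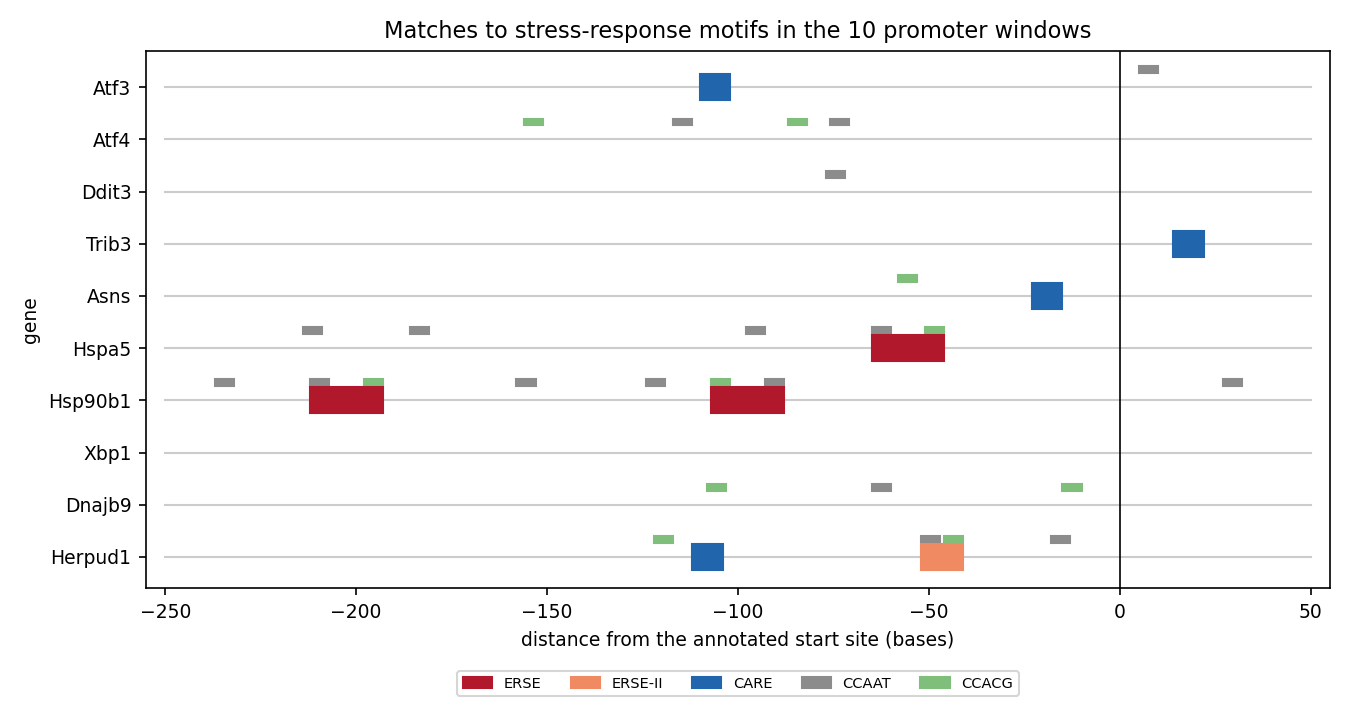
Positions of motif matches in the promoter windows of the 10 genes, in bases from the annotated start site (vertical line). Wide bars on the grey line are ERSE, ERSE-II and CARE matches on either strand, and small bars above it are CCAAT and CCACG. ERSE matches are seen in Hspa5 and Hsp90b1, ERSE-II in Herpud1, and CARE in Atf3, Trib3, Asns and Herpud1.

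The mouse entry for the mature miR-199a-3p is shown because the 2 sets differed most in their medians under this mimic when set against cel-miR-67. Its seed, bases 2 to 8, is in capitals, and the sequence is the RefSeq entry of build GRCm38.p6.
mmu-miR-199a-3p: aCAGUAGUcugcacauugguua

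Libraries held 38745528 (hsa-miR-199a-3p), 34452240 (hsa-miR-590-3p), 34255689 (cel-miR-67) and 31638930 (mock) reads in transcripts. All 10 cardiomyocyte markers were present, and their summed level was 40613 CPM under hsa-miR-199a-3p and 41138 CPM under hsa-miR-590-3p, against 52743 CPM under cel-miR-67 and 59306 CPM in mock. The 9 fibroblast markers summed to 11955 and 11488 CPM against 10221 and 10643 CPM, a sum carried by Col1a1, Col1a2 and Col3a1. Of all genes compared, 41.9% lay below both controls under hsa-miR-199a-3p and 36.6% under hsa-miR-590-3p. At least 2-fold below both under hsa-miR-199a-3p were 2.34%. Over the whole fibroblast list 5 of 9 lay below both controls under hsa-miR-199a-3p, with medians of -0.45 and -0.02, and Postn, at log2 ratios of -2.05 and -1.61, was past 2-fold lower (2.49% of its reads placed uniquely). Among cardiomyocyte markers 8 of 10 lay below both controls under each microRNA. Past 2-fold lower under hsa-miR-199a-3p were Ryr2 (-1.38 and -1.14) and Ttn (-1.13 and -1.25, 2.15% of its reads placed uniquely), while Myl7 was higher (0.80 and 0.54). For Myh6, with 0.158% of reads placed uniquely, all reads gave -0.41 and -0.56 in that library, but unique reads gave -0.01 and 0.05. Tnnt2 (0.0018%) and Myh7 (16.9%) also had few unique reads, so the cardiomyocyte sum is uncertain. Counting unique reads only, 6 of 9 markers were below both controls with hsa-miR-199a-3p and 7 with hsa-miR-590-3p, beside 40.3% and 34.0% of all genes. The 7 macrophage markers, of which 4 did not reach a mean of 1 CPM, summed to 7.77 and 6.05 CPM against 7.92 and 19.2 CPM. Smooth muscle and pericyte markers (6) summed to 6290.3 and 5030.0 CPM against 5321 and 4419 CPM, mostly from Acta2, while 3 of 6 lay below both controls under hsa-miR-199a-3p, with medians of -0.19 and -0.03, and Rgs5 was past 2-fold lower at -1.12 and -1.14. The sums were, for endothelial markers (6), 151 and 165 CPM against 143 and 179 CPM, and for epicardial markers (5), 269 and 297 CPM against 204 and 313 CPM. No marker of these lists was at 0 in all libraries. In such mixed cultures fewer cells of a type and less RNA per cell cannot be told apart, and the part of these marker shifts in the results below was not tested.

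Per unit of transcript length, the ER chaperones were the most abundant of the 10 genes in all 4 libraries. By the authors' RPKM (reads scaled to transcript length and library size), Hspa5, the ER chaperone BiP, stood at 295 under hsa-miR-199a-3p, 376 under hsa-miR-590-3p, 430.3 under cel-miR-67 and 346 in mock. Hsp90b1, the ER chaperone GRP94, followed at 209, 324, 330.0 and 293 RPKM. Atf4 itself came next, at 149.8, 124, 122 and 132 RPKM. At the other end, Atf3 had 5.69 RPKM under hsa-miR-199a-3p and 13.6 RPKM in mock and was the lowest of the 10 in every library. Asns, Xbp1 and Herpud1 lay between 53.2 and 87.7 RPKM, Ddit3 between 25.6 and 33.7 RPKM, and Dnajb9 and Trib3 between 11.5 and 22.3 RPKM.

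Under hsa-miR-199a-3p the ER set lay below both controls, while Atf4, Ddit3 and Trib3 did not. All 5 ER and UPR genes were on that side (4 of 5 when libraries were scaled by total counts), as were 41.9% of all genes compared, and the largest differences were those of Dnajb9, Hsp90b1 and Hspa5. Of the ATF4 axis, Atf3 and Asns lay below both controls, Atf4 and Ddit3 above both, as 40.2% of all genes did, and Trib3 between them. The difference of Ddit3 from mock was within counting error. A single gene, Atf3, was at least 2-fold below both controls, the criterion that 2.34% of all genes met in that direction and 2.4% in the other, 4.74% in all.

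Under hsa-miR-590-3p all 5 ATF4-axis genes (4 of 5 with total counts) lay below both controls, as did Xbp1, Dnajb9 and Herpud1, against 36.6% of all genes, and none lay above both, against 35.6%. On uniquely placed reads alone 1 of the 10, Hspa5, lay above both. None of the 10 differed 2-fold from both controls, a size that 0.585% of all genes reached in either direction. Levels under both microRNAs lay below both controls for Atf3, Asns, Xbp1, Dnajb9 and Herpud1, 5 of the 10 genes, and 21.6% of all genes showed that order. Herpud1 left this group with total-count scaling, where its hsa-miR-199a-3p value against mock was 0.09. The microRNAs share their control libraries, so these counts are not independent of each other.

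**Figure D2:**
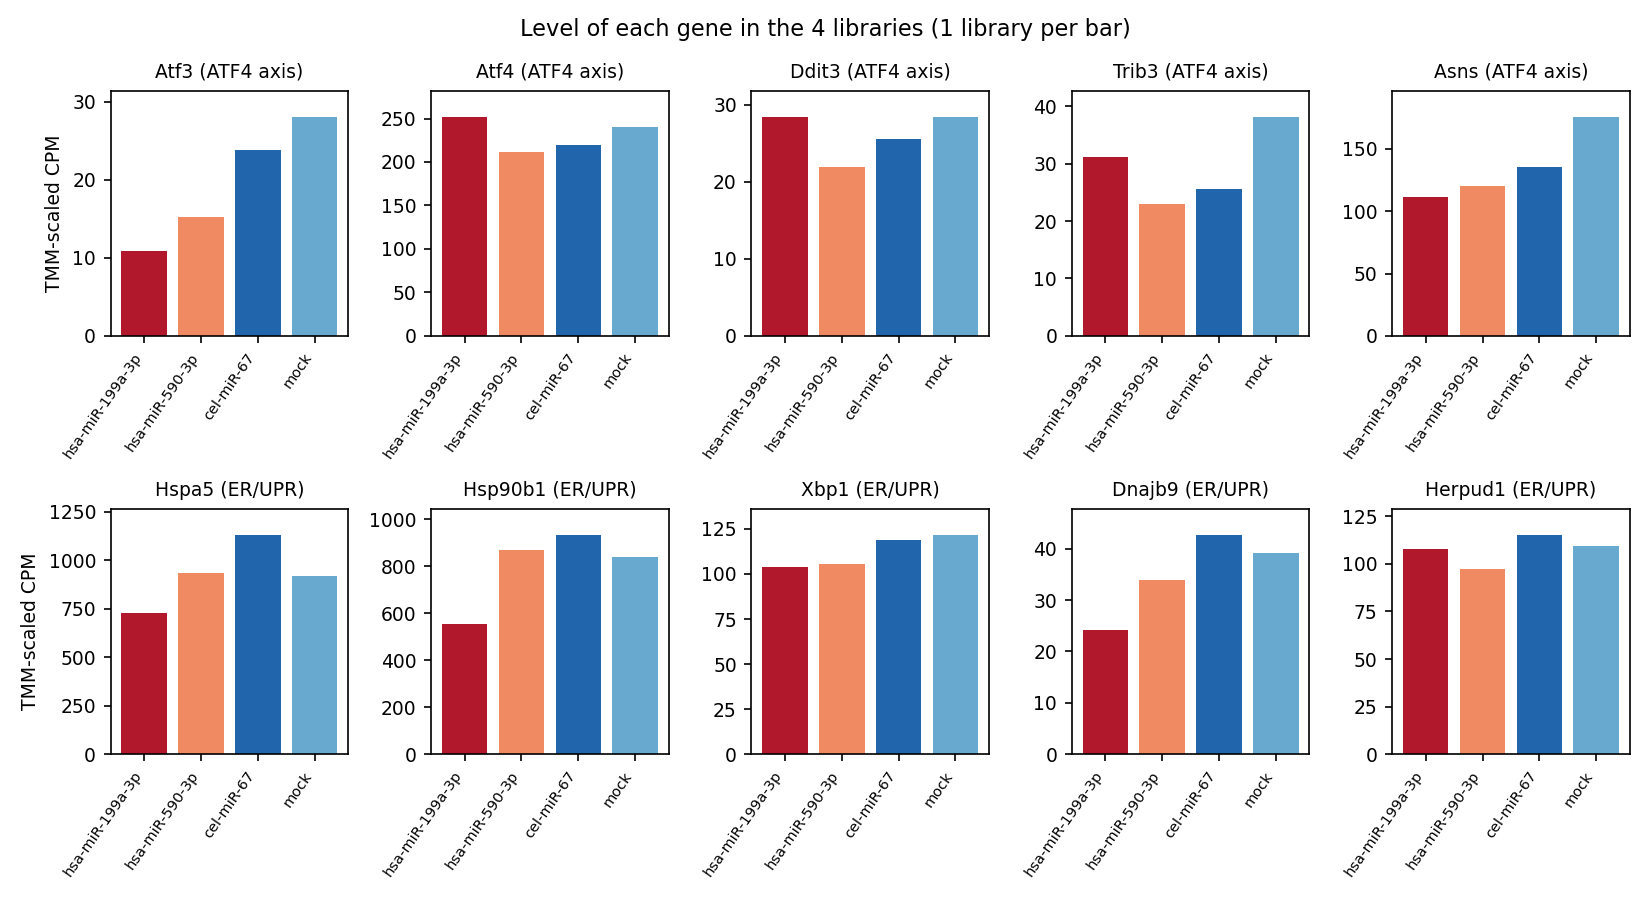
Level of each gene in TMM-scaled CPM, 1 bar per library, with the ATF4 axis in the upper row and ER and UPR genes in the lower row, each panel on its own scale from 0. Atf3 ranges from 10.9 CPM under hsa-miR-199a-3p to 28.1 CPM in mock, and Hspa5, Hsp90b1 and Dnajb9 are lowest under hsa-miR-199a-3p.

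Atf4, the factor at the head of the axis, varied little. Its level was 252 CPM under hsa-miR-199a-3p, 212 CPM under hsa-miR-590-3p, 219 CPM under cel-miR-67 and 239.8 CPM in mock, on 7286 to 10149 reads. The highest level was 1.19-fold the lowest, a range smaller than that of most genes, since the median gene differed 1.38-fold between its highest and lowest library. Against cel-miR-67 and mock the hsa-miR-199a-3p library stood at log2 ratios of 0.20 and 0.07, and the hsa-miR-590-3p library at -0.05 and -0.18, where the value against cel-miR-67 became 0.02 when libraries were scaled by total counts.

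Ddit3, which encodes the pro-apoptotic factor CHOP, had 28.5 CPM under hsa-miR-199a-3p, 21.9 CPM under hsa-miR-590-3p, 25.5 CPM under cel-miR-67 and 28.4 CPM in mock. The hsa-miR-199a-3p and mock libraries differed by less than counting error, with a ratio of 1.00 and a 95% counting interval of 0.915 to 1.09. The hsa-miR-590-3p library was the lowest, at 0.859 of cel-miR-67 (0.778 to 0.947) and 0.770 of mock (0.698 to 0.850). Such intervals cover counting error only, not variation between cultures. They may be too narrow even for that error, since reads copied by PCR and carrying no molecular identifier are not separate molecules.

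Trib3, a pseudokinase that binds ATF4 and CHOP and dampens their activity, depended most on the choice of control. It had 31.2 CPM under hsa-miR-199a-3p and 23.0 CPM under hsa-miR-590-3p, against 25.6 CPM under cel-miR-67 and 38.2 CPM in mock. The hsa-miR-199a-3p value thus lay 0.29 above cel-miR-67 and -0.29 from mock on the log2 scale, between controls that themselves differed by -0.58 (cel-miR-67 against mock). Under hsa-miR-590-3p the log2 ratios were -0.15 and -0.73.

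Asns encodes asparagine synthetase, a classic readout of ATF4 activity. Its level was 112 CPM under hsa-miR-199a-3p and 119.98 CPM under hsa-miR-590-3p, against 136 CPM under cel-miR-67 and 176 CPM in mock. Both microRNA libraries lay below both controls, at log2 ratios of -0.28 and -0.65 for hsa-miR-199a-3p and of -0.18 and -0.55 for hsa-miR-590-3p, and all 3 mimic libraries lay below mock. Relative to Atf4 mRNA within the same library, Asns had 44.4 reads per 100 Atf4 reads under hsa-miR-199a-3p, 56.6 under hsa-miR-590-3p, 61.9 under cel-miR-67 and 73.3 in mock.

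Atf3, a stress-induced repressor of the same protein family that is also an immediate-early gene, showed the widest range of the 10 genes. It had 437 reads (10.9 CPM) under hsa-miR-199a-3p, 536 reads (15.2 CPM) under hsa-miR-590-3p, 797 reads (23.8 CPM) under cel-miR-67 and 853 reads (28.1 CPM) in mock. The 2 microRNA libraries did not overlap with the controls. The hsa-miR-199a-3p ratios were 0.456 of cel-miR-67 (0.404 to 0.512) and 0.387 of mock (0.344 to 0.434), and those of hsa-miR-590-3p were 0.637 (0.569 to 0.711) and 0.540 (0.484 to 0.603). The hsa-miR-199a-3p interval against cel-miR-67 reached past the 2-fold mark of 0.5. Its ratio to Ddit3, another gene of the axis, also differed between libraries, with 38.1 Atf3 reads per 100 Ddit3 reads under hsa-miR-199a-3p, 69.3 under hsa-miR-590-3p, 93.4 under cel-miR-67 and 98.7 in mock.

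Immediate-early genes, whose transcripts appear within minutes of a stimulus and to which Atf3 also belongs, mostly lay on the same side as Atf3 under hsa-miR-199a-3p. Of 16 listed (Atf3 not among them), 15 lay below both controls in that library and 11 under hsa-miR-590-3p, where 41.9% and 36.6% of all genes did. The list medians were -0.36 against each control under hsa-miR-199a-3p, and -0.07 and -0.08 under hsa-miR-590-3p. Scaling by total counts gave 12 and 5 of 16 below both controls, beside 32.7% and 24.0% of all genes, and the hsa-miR-590-3p medians then took the other sign, at 0.00 and 0.02. None of the 16 was 2-fold from both controls under either microRNA. Egr1, a zinc-finger factor, was at -0.58 and -0.38 under hsa-miR-199a-3p, and Klf6, the other most abundant member, at -0.33 and -0.35. Klf4, named after its values were seen, lay above both controls in that library, at 0.65 and 0.64. The summed level of the list was 747 CPM under hsa-miR-199a-3p and 847 CPM under hsa-miR-590-3p, against 924 CPM under cel-miR-67 and 872 CPM in mock, and its part in the Atf3 values was not tested.

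**Figure D3:**
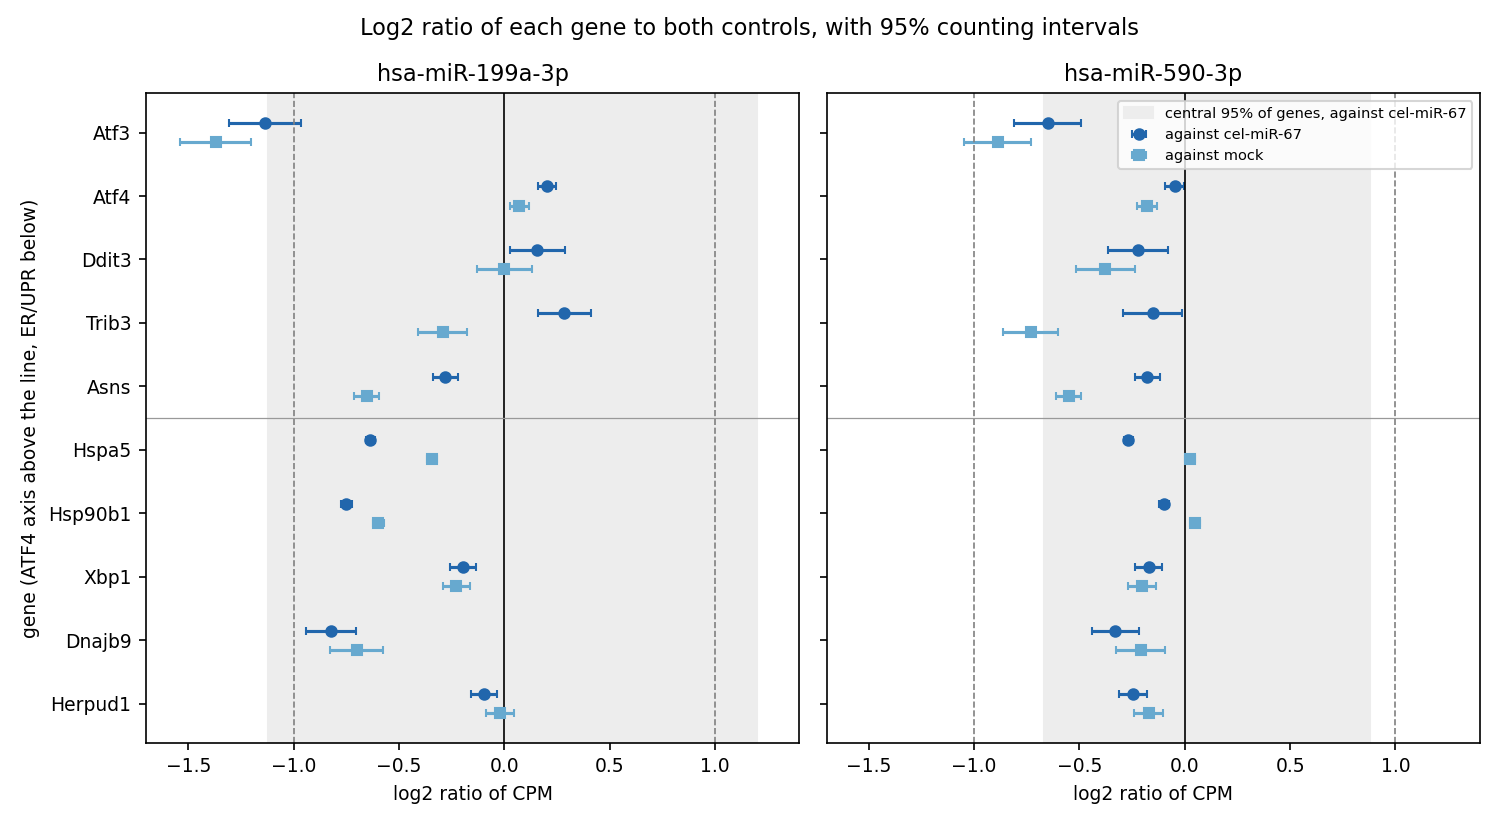
Log2 ratio of each gene's CPM under hsa-miR-199a-3p (left) and hsa-miR-590-3p (right) to cel-miR-67 (circles) and to mock (squares), with 95% counting intervals. Grey marks the central 95% of the 13502 genes against cel-miR-67, dashed lines mark 2-fold, and Atf3 under hsa-miR-199a-3p, at -1.13 and -1.37, lies past the lower line.

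Among ER genes, Hsp90b1 and Dnajb9 were the clearest. Hsp90b1 had 555 CPM under hsa-miR-199a-3p and 870.0 CPM under hsa-miR-590-3p, against 932 CPM under cel-miR-67 and 840.3 CPM in mock, all from uniquely placed reads. Only the hsa-miR-199a-3p library stood apart, at 0.595 of cel-miR-67 (0.585 to 0.605) and 0.660 of mock (0.649 to 0.672), whereas hsa-miR-590-3p lay between the controls. Dnajb9, a co-chaperone that keeps IRE1 inactive and aids removal of misfolded proteins, had 24.1 CPM under hsa-miR-199a-3p, 33.9 CPM under hsa-miR-590-3p, 42.6 CPM under cel-miR-67 and 39.2 CPM in mock. Its ratios to cel-miR-67 and mock were 0.566 (0.521 to 0.614) and 0.615 (0.565 to 0.670) under hsa-miR-199a-3p, and 0.795 (0.736 to 0.860) and 0.865 (0.797 to 0.938) under hsa-miR-590-3p.

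Hspa5, whose protein holds the UPR sensors inactive when it is not bound to misfolded proteins, had 726 CPM under hsa-miR-199a-3p and 936 CPM under hsa-miR-590-3p, against 1128 CPM under cel-miR-67 and 920.3 CPM in mock. The hsa-miR-199a-3p library was lowest, at log2 ratios of -0.64 and -0.34, and the controls themselves differed by 0.29. Hspa5 is the least certain of the 10 genes in its counting. Its reads fall on 2 transcript records, and 2.16% to 2.87% of them were placed uniquely. On uniquely placed reads alone the hsa-miR-199a-3p values were -0.59 and -0.45, and the hsa-miR-590-3p values were 0.13 and 0.27, where all reads gave -0.27 and 0.02. The shorter record took 69.9% of the gene's reads under hsa-miR-199a-3p, 72.0% under hsa-miR-590-3p, 68.1% under cel-miR-67 and 72.0% in mock.

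Xbp1 and Herpud1 varied least. Xbp1, the substrate of IRE1 and a transcription factor for ER expansion, had 104 CPM under hsa-miR-199a-3p and 105 CPM under hsa-miR-590-3p, against 119 CPM under cel-miR-67 and 121 CPM in mock. The 2 microRNA libraries differed by less than counting error (ratio 0.983, 0.941 to 1.03), as did the controls (ratio 0.978, 0.935 to 1.02), and the log2 ratios of a microRNA library to a control ran from -0.23 to -0.17. Herpud1, which recruits ubiquitin ligases for ER-associated degradation and carried both an ERSE-II and a CARE in its promoter window, had 108 CPM under hsa-miR-199a-3p, 97.03 CPM under hsa-miR-590-3p, 115 CPM under cel-miR-67 and 109 CPM in mock. Under hsa-miR-199a-3p its log2 ratios were -0.10 and -0.02, and the value against mock became 0.09 with total-count scaling, so that 4 of the 5 ER genes then lay below both controls.

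The 5 ATF4-axis genes under hsa-miR-199a-3p had a median log2 ratio of 0.16 against cel-miR-67 and -0.29 against mock, and the 5 ER genes of -0.64 and -0.34, where the medians of all genes were 0.00 and -0.01. Under hsa-miR-590-3p the ATF4 axis had medians of -0.18 and -0.55 and the ER set -0.24 and -0.17, beside 0.00 and -0.01 over all genes. The ATF4-axis median of hsa-miR-199a-3p thus changed sign with the control.

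The balance of the 2 sets can be read within a library, without any scaling between libraries. The ATF4-axis genes had 28.6 reads per 100 ER reads under hsa-miR-199a-3p (95% counting interval 28.2 to 29.1), 19.2 under hsa-miR-590-3p (18.8 to 19.5), 18.4 under cel-miR-67 (18.1 to 18.7) and 25.1 in mock (24.7 to 25.6). The hsa-miR-199a-3p library had the highest value, yet mock was nearer to it than to cel-miR-67, so the distance between the controls was larger than that between hsa-miR-199a-3p and mock. With Atf4 and Asns, the most abundant axis genes, left out, hsa-miR-199a-3p and mock stood at 4.65 and 4.66, hsa-miR-590-3p at 2.94 and cel-miR-67 at 3.21. Ddit3 reads per 100 Hspa5 reads had the same order as the full sets, 3.92 under hsa-miR-199a-3p, 2.34 under hsa-miR-590-3p, 2.26 under cel-miR-67 and 3.09 in mock, but few Hspa5 reads were placed uniquely. Per 100 reads of Hsp90b1, all placed uniquely, Ddit3 had 5.13, 2.52, 2.74 and 3.38 in the same library order, so that hsa-miR-590-3p was then lowest.

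Taking each ATF4-axis gene with each ER gene gave 25 pairs, which share genes and are not independent. The ATF4-axis gene had the higher log2 ratio of the pair in 18 of 25 pairs under hsa-miR-199a-3p against cel-miR-67 and in 14 of 25 against mock. Under hsa-miR-590-3p it did so in 15 and 2 pairs. Between the controls, cel-miR-67 against mock, it did so in 0 of 25, with a median difference of -0.39 on the log2 scale.

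**Figure D4:**
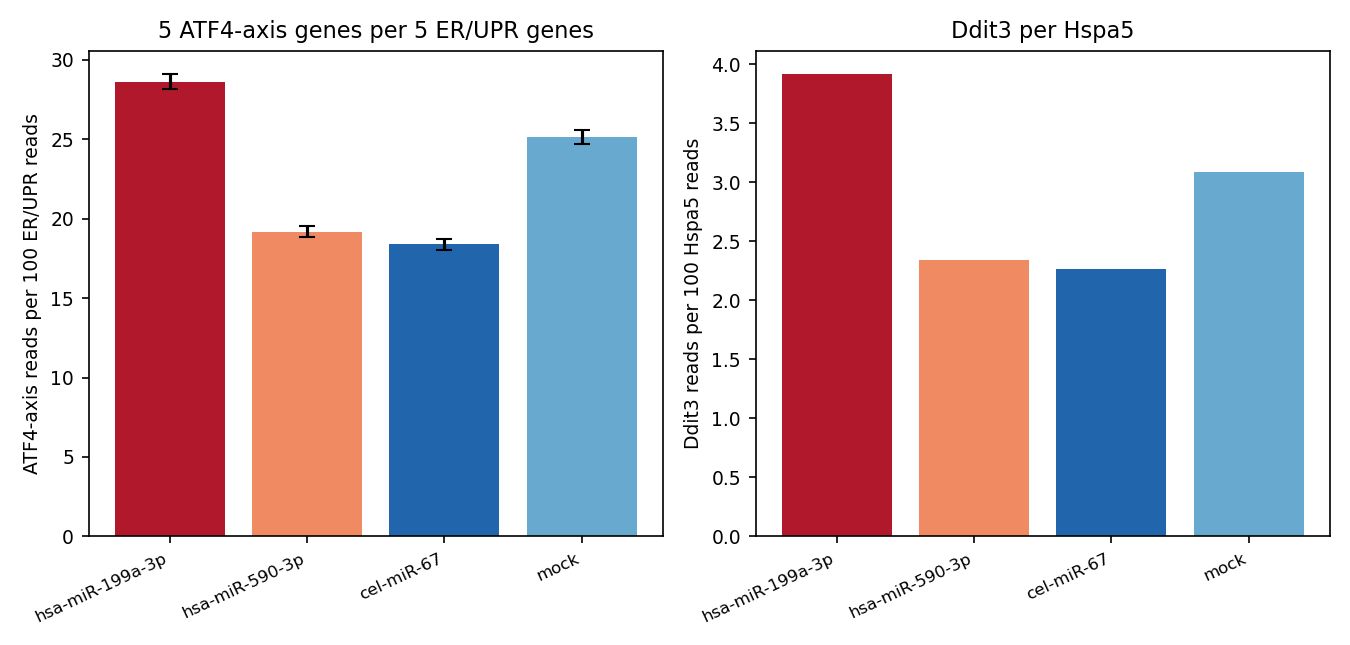
Left, reads of the 5 ATF4-axis genes per 100 reads of the 5 ER and UPR genes in each library, with 95% counting intervals, and right, Ddit3 reads per 100 Hspa5 reads. The values on the left are 28.6 and 25.1 under hsa-miR-199a-3p and in mock, above 19.2 under hsa-miR-590-3p and 18.4 under cel-miR-67. On the right, 2.16% to 2.87% of the Hspa5 reads were placed uniquely.

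The control libraries differed in these genes by less than 2-fold throughout. None of the 10 reached 2-fold for cel-miR-67 against mock, which 1.98% of all genes did. All 5 ATF4-axis genes were lower under cel-miR-67 than in mock, from -0.58 for Trib3 and -0.37 for Asns to -0.13 for Atf4. Of all 13502 genes compared, 6709 were lower and 6793 higher under cel-miR-67 than in mock. Of the ER genes, Hspa5 was highest relative to mock at 0.29, Hsp90b1, Dnajb9 and Herpud1 stood at 0.15, 0.12 and 0.07, and Xbp1 at -0.03. For 5 of the 10 genes (Atf4, Trib3, Asns, Hspa5 and Hsp90b1) the distance between the controls exceeded the distance of hsa-miR-590-3p from cel-miR-67. This was not counted over all genes. The 25th and 75th percentiles of all genes were -0.15 and 0.15 for cel-miR-67 against mock, and -0.17 and 0.19 for hsa-miR-590-3p against cel-miR-67.

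Set directly against hsa-miR-590-3p, the hsa-miR-199a-3p library was lower for Hsp90b1 (log2 ratio -0.65), Dnajb9 (-0.49), Atf3 (-0.48) and Hspa5 (-0.37), and higher for Trib3 (0.44), Ddit3 (0.38), Atf4 (0.25) and Herpud1 (0.15). Asns stood at -0.10 and Xbp1 at -0.02. None of the 10 reached 2-fold, which 4.58% of all genes did in this comparison.

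Other genes of the 2 pathways were taken from lists without the 10 genes. Beside the list counts that follow, 40.2% of all genes lay above and 41.9% below both controls under hsa-miR-199a-3p, and 35.6% and 36.6% under hsa-miR-590-3p. The list counts move with the scaling as those of all genes do. Total counts put 50.7% of all genes above and 32.7% below both controls under hsa-miR-199a-3p, and 49.0% and 24.0% under hsa-miR-590-3p. Few reads were placed uniquely for some genes named from these lists, 0.484% for Psat1, 0.716% for Mbtps1, 1.16% for Canx, 4.64% for Eif2ak4, 4.91% for Syvn1, 21.2% for Pdia6 and 23.6% for Dnajb11, and their values are uncertain. Of 29 further ATF4 target genes, 14 lay above and 10 below both controls under hsa-miR-199a-3p, and 5 above and 14 below under hsa-miR-590-3p. The medians were 0.14 and 0.01 for hsa-miR-199a-3p, and -0.01 and -0.16 for hsa-miR-590-3p. With total-count scaling these counts were 18 and 6, and 9 and 11. A single one met the 2-fold criterion. Fgf21, a secreted stress hormone, had 329 reads under hsa-miR-199a-3p and 99 under hsa-miR-590-3p, where cel-miR-67 had 65 and mock 72. Its log2 ratios for hsa-miR-199a-3p were 2.06 and 1.78. The amino acid transporters Slc7a5 (-0.21 and -0.63) and Slc7a1 (-0.06 and -0.22), the most abundant members, were not above either control.

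Several enzymes of serine synthesis and one-carbon metabolism in that list, named after their values were seen, lay above both controls under hsa-miR-199a-3p, unlike Asns. Phgdh, the first enzyme of serine synthesis, stood at 0.52 and 0.33, Psat1, the next enzyme, at 0.65 and 0.51 (0.06 and 0.37 on uniquely placed reads), Shmt2, the mitochondrial serine hydroxymethyltransferase, at 0.52 and 0.41, and Aldh1l2, a mitochondrial folate enzyme, at 0.23 and 0.18. Psph, the last enzyme of serine synthesis, stood at -0.33 and -0.42, and Mthfd2, another mitochondrial folate enzyme, at 0.14 and -0.03. Cth, which makes cysteine and was also named after its values were seen, had 848 reads under hsa-miR-199a-3p and 262 under hsa-miR-590-3p, compared with 174 under cel-miR-67 and with 329 in mock. Its log2 ratios for hsa-miR-199a-3p, 2.01 and 0.96, thus missed the criterion against mock. With total-count scaling they were 2.10 and 1.07 and met it.

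Of 12 aminoacyl-tRNA synthetases, many of which are ATF4 targets, 5 lay above and 3 below both controls under hsa-miR-199a-3p, and 0 above and 10 below under hsa-miR-590-3p, with medians of -0.08 and -0.21. Over all genes 40.2% lay above and 41.9% below both controls under hsa-miR-199a-3p, and 35.6% and 36.6% under hsa-miR-590-3p. With total-count scaling 7 of the 12 lay below both controls under hsa-miR-590-3p. On uniquely placed reads, few for several of the synthetases, 5 lay above and 5 below under hsa-miR-199a-3p, and 1 above and 10 below under hsa-miR-590-3p. Gars, the glycyl-tRNA synthetase, was at 0.45 and 0.19 under hsa-miR-199a-3p, and at -0.11 and -0.37 with hsa-miR-590-3p, while Aars, the alanyl-tRNA synthetase, was at 0.23 and 0.21 and at -0.17 and -0.19. Among the eIF2 kinases, chosen for their role, Eif2ak3, which encodes PERK, was at -0.28 and 0.16 under hsa-miR-199a-3p, Eif2ak4, the amino acid sensor GCN2, at -0.24 and 0.03 (-0.35 and -0.42 on uniquely placed reads), Eif2ak1, the haem-regulated kinase, at -0.14 and -0.08, and Eif2ak2, the double-stranded RNA sensor PKR, at -0.37 and -0.92. Ppp1r15b, a targeting subunit of the eIF2 phosphatase and the most abundant gene of that list, stood at 0.31 and 0.27, and Eif2s1, the phosphorylated subunit of eIF2, at -0.10 and -0.29. Of the 12 genes of kinases, eIF2, its phosphatase and eIF2B, 2 lay above and 6 below both controls under each microRNA, and none met the 2-fold criterion.

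The 20 further ER chaperones and folding enzymes lay on both sides of the controls. Under hsa-miR-199a-3p 7 lay above and 9 below both controls, and under hsa-miR-590-3p 6 above and 8 below. The medians were -0.03 and 0.02 for hsa-miR-199a-3p, and -0.01 and 0.01 for hsa-miR-590-3p. With total-count scaling, as over all genes, more lay above than below, 10 and 6 under hsa-miR-199a-3p and 11 and 3 under hsa-miR-590-3p. P4hb, protein disulfide isomerase, was at 0.10 and 0.15 under hsa-miR-199a-3p, and Calr, the calcium-binding chaperone calreticulin, at -0.20 and -0.01. Partners of BiP, named after their values were seen, also differed among themselves under hsa-miR-199a-3p. Hyou1, a nucleotide exchange factor, stood at -0.68 and -0.63, the co-chaperone Dnajc3 at -0.77 and -0.60, and the disulfide reductase Dnajc10 at -0.64 and -0.61. The co-chaperone Dnajb11 stood at -0.22 and -0.13, and Sil1, another nucleotide exchange factor, at 0.18 and 0.46. Canx, the membrane chaperone calnexin, also named after its values were seen, had 17468 reads under hsa-miR-199a-3p, 20255 under hsa-miR-590-3p, 8559 under cel-miR-67 and 17564 in mock, so that the control mimic alone stood apart.

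Among 24 genes of ER-associated degradation and protein translocation, 6 lay above and 13 below both controls under hsa-miR-199a-3p, and 4 above and 17 below under hsa-miR-590-3p, counts that total-count scaling moved to 9 and 10, and 6 and 10. Edem3, which trims mannose from misfolded glycoproteins, had 1664 reads under hsa-miR-199a-3p and 2828 under hsa-miR-590-3p, compared with 3284 under cel-miR-67 and with 2717 in mock. With log2 ratios of -1.25 and -1.11 for hsa-miR-199a-3p it met the criterion, but its value against mock was -0.999 with total-count scaling, just short of the criterion. Vcp, the ATPase that extracts ubiquitylated proteins, stood at 0.23 and -0.02, and Ssr3, a translocon-associated subunit, at -0.22 and -0.46. Of the sensors and their proteases, Atf6, Atf6b and Ern1 were chosen for their role. Atf6 was at -0.65 and -0.53 under hsa-miR-199a-3p and at -0.48 and -0.36 under hsa-miR-590-3p, its paralogue Atf6b at 0.54 and 0.33 and at 0.48 and 0.27, and Ern1, which encodes IRE1, at 0.44 and -0.03 and at 0.41 and -0.06. The most abundant genes of the list, Creb3l2, a membrane-bound factor, and Mbtps1, the site-1 protease that cuts ATF6, stood at -0.03 and -0.02 and at 0.19 and 0.23 under hsa-miR-199a-3p, where uniquely placed reads gave -0.55 and 0.18 for Mbtps1. Of these 9 genes, 2 lay above and 3 below both controls under hsa-miR-199a-3p, and 3 and 3 under hsa-miR-590-3p, and none met the criterion. With total-count scaling 6 lay above and 2 below under each microRNA. Of the relatives of Trib3, which lay between the controls, Trib2 was at 0.18 and 0.56 under hsa-miR-199a-3p and Trib1 at -0.40 and -0.16.

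**Figure D5:**
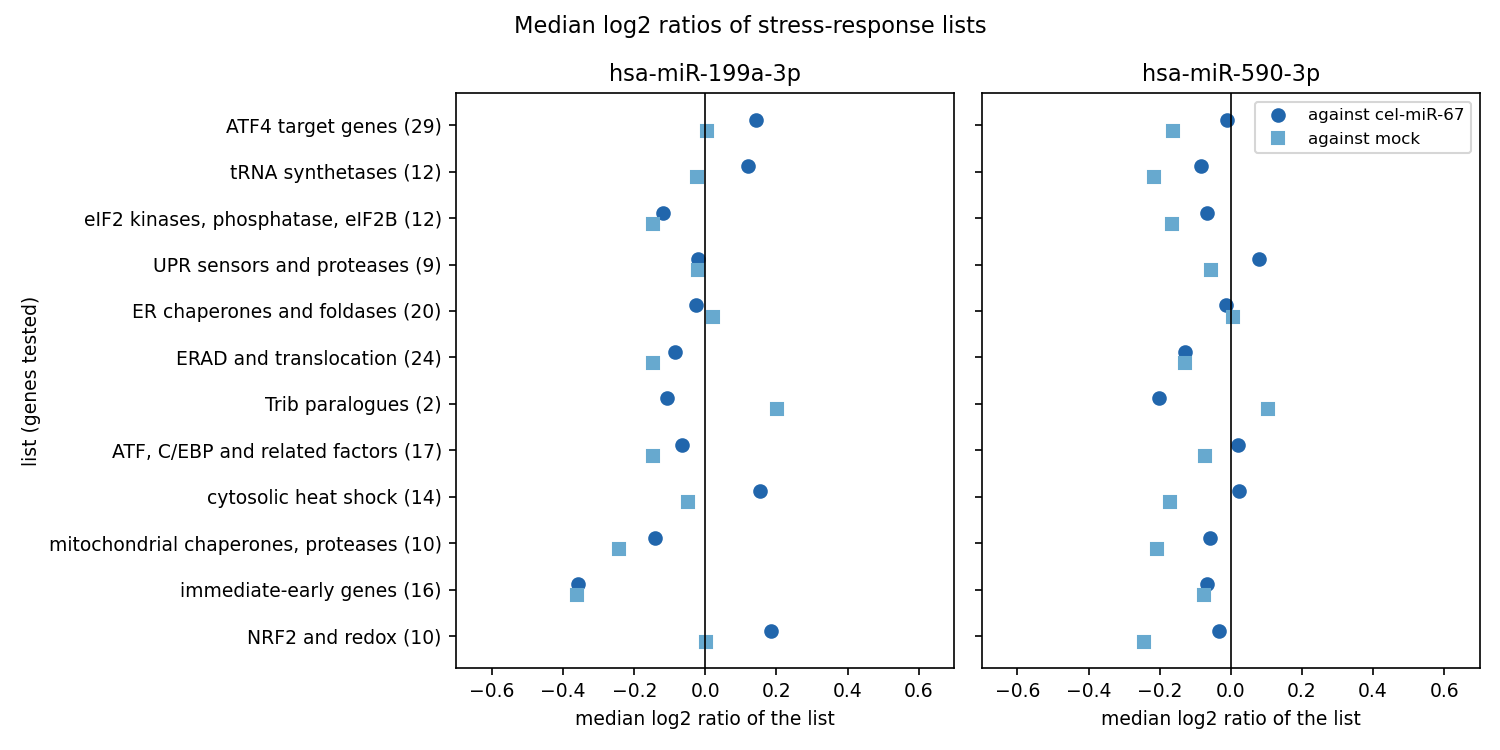
Median log2 ratio of each list of further stress-response genes under hsa-miR-199a-3p (left) and hsa-miR-590-3p (right), against cel-miR-67 (circles) and mock (squares), with the number of genes compared in brackets. Most medians lie within 0.25 of 0, and immediate-early genes under hsa-miR-199a-3p stand at -0.36 against each control.

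Genes that carry the same promoter motifs can be followed across all promoters. Beside the 10 genes, 14 genes with an ERSE in a promoter window were compared, and 4 lay above and 7 below both controls under hsa-miR-199a-3p, and 5 above and 5 below under hsa-miR-590-3p. Over all genes the shares were 40.2% above and 41.9% below, and 35.6% above and 36.6% below. The medians of the 14 were -0.03 against each control for hsa-miR-199a-3p, and -0.03 and 0.10 for hsa-miR-590-3p. Among them Dnajc3 (-0.77 and -0.60) and Syvn1, the ubiquitin ligase of ER-associated degradation (-0.58 and -0.36), lay below both controls under hsa-miR-199a-3p, and Pdia6, a disulfide isomerase (0.07 and 0.15), above both. These 3 were named after their values were seen. The 260 compared genes with a CARE match had medians of -0.01 and -0.03 under hsa-miR-199a-3p. Of these, 6 met the 2-fold criterion upward and 2 downward, where 2.4% and 2.34% of all genes did, so the upward count was near the share of all genes.

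Atf3 had the widest range of the 10, 2.58-fold between its highest and lowest library, and 94.9% of all genes had a smaller one. The genes with the most similar profile over the 4 libraries, among 9198 whose mean reached 10 CPM, were Crebrf, Tll1, Adamtsl5, Myom2 and Hmgcs1. Likeness was the largest difference between the mean-centred log2 profiles in any library, and it was 0.12 for Crebrf, 0.15 for Tll1, 0.16 for Adamtsl5, and 0.17 for both Myom2 and Hmgcs1. Crebrf had 460 reads under hsa-miR-199a-3p and 487 under hsa-miR-590-3p, compared with 814 under cel-miR-67 and with 762 in mock. Myom2, a protein of the sarcomeric M-band, had 13516 reads under hsa-miR-199a-3p and 18254 under hsa-miR-590-3p, where cel-miR-67 had 26594 and mock 23871. Of the reads of Adamtsl5 57.7% were placed uniquely and of those of Hmgcs1 0.479%, so these 2 profiles are uncertain.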

How the data were processed

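The authors deposited, for each of the 4 libraries, counts of total and of uniquely placed reads per RefSeq transcript record and an RPKM value, per the file headers. The submitters' processing notes name CASAVA 1.8 and build mm8, with no role given, and no source used here names the mapping program. Reads shared between records are part of the total counts. Records were named by transcript accession (27926) or by header symbol (8139), and reads were summed over the records of a gene. TMM factors came from edgeR 4.0.16 in R 4.3.3, and log2 ratios of CPM used a prior count of 0.5 and a minimum mean of 1 CPM. No test was run, since 4 libraries of 4 conditions leave 0 residual degrees of freedom. The criterion was a difference of 2-fold or more from each control, in the same direction, and between 2 single libraries a difference of 2-fold or more. Ratios have exact Clopper-Pearson intervals at 95%, conditional on the sum of both counts. Alternatives were total counts, DESeq2 1.42.0 size factors, the authors' RPKM with a pseudocount of 0.01, uniquely placed reads, a prior count of 2, other filters, single controls and a 1.5-fold threshold. The procedure was also run on simulated Poisson counts with known changes and known scaling. These held no variation between cultures, no copied reads and no reads shared between records, so that run cannot speak to such errors. Python 3.11.15 with numpy 2.4.6, pandas 2.3.3, scipy 1.17.1 and matplotlib 3.10.9 was used.

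The 10 genes and the gene lists were chosen with earlier results of these data known. Genes named from the pathway lists were those past 2-fold against both controls, up to 3 per list, microRNA and direction, and the 2 most abundant of a list. Others are marked as named for their role or after their values were seen. The mature miR-590-3p is named only. Promoter coordinates belong to GRCm38.p6, not to the build of the counts.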

Additional observations from a re-analysis of the deposited data

How the results depend on the processing

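Atf3 under hsa-miR-199a-3p met the criterion under every alternative run, and the other 9 genes met it under none but the 1.5-fold threshold. At 1.5-fold, 2 ER genes (Hsp90b1 and Dnajb9) were called under hsa-miR-199a-3p and 1 ATF4-axis gene (Atf3) under hsa-miR-590-3p, where 0 were called at 2-fold, and 1 gene (Hsp90b1) was called for hsa-miR-199a-3p against hsa-miR-590-3p. Of all 13502 genes, 2039 met the 1.5-fold threshold against both controls under hsa-miR-199a-3p and 546 under hsa-miR-590-3p. Between the microRNAs, all genes were not counted at 1.5-fold. Of 200 alternative values of the 40 log2 ratios of the 10 genes to a control, 5 changed sign. These were for Herpud1 under hsa-miR-199a-3p against mock, and for Atf4 and Hspa5 under hsa-miR-590-3p against cel-miR-67. Of the same 200 values, 52 moved beyond the counting interval of the main value. For Hsp90b1 under hsa-miR-199a-3p against cel-miR-67, total counts gave -0.66, where TMM gave -0.75 with an interval of -0.77 to -0.72. Counting intervals thus do not cover the choice of scaling or of reads. Total counts moved the median of all genes to 0.10 for hsa-miR-199a-3p against mock.

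Total counts and the authors' RPKM gave ER medians of -0.54 and -0.54 for hsa-miR-199a-3p against cel-miR-67 and -0.23 and -0.23 against mock, and uniquely placed reads gave -0.59 and -0.45. Total counts moved the ATF4-axis medians for hsa-miR-199a-3p to 0.25 and -0.18, where TMM gave 0.16 and -0.29. For hsa-miR-590-3p against cel-miR-67, total counts and RPKM gave -0.11 and -0.11 for the ATF4 axis and -0.17 and -0.17 for the ER set, as uniquely placed reads did for the ER set (-0.17). Against mock they gave -0.46 and -0.46, and -0.076 and -0.076.

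Without Hspa5 the ATF4-axis reads per 100 ER reads were 54.9 under hsa-miR-199a-3p, 35.4 under hsa-miR-590-3p, 35.5 under cel-miR-67 and 46.0 in mock. Without Atf4 and Asns they were 4.65, 2.94, 3.21 and 4.66. Both were chosen after seeing the data.

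Over all genes, 640 met the criterion under hsa-miR-199a-3p, but 2654 with no filter, 402 at a minimum of 5 CPM, 1032 against cel-miR-67 alone, 1038 against mock alone and 2039 at 1.5-fold. Under hsa-miR-590-3p the count was 79, but 1539, 31, 317, 248 and 546 under the same changes. Keeping records apart gave 938 under hsa-miR-199a-3p and 276 under hsa-miR-590-3p. Total counts moved the split to 413 higher and 240 lower under hsa-miR-199a-3p, from 324 and 316, and to 64 and 23 under hsa-miR-590-3p, from 48 and 31. The cause was not tested. No paired analysis was possible because each condition had 1 library. For the same reason no library could be left out, and variation between cultures of 1 condition was not measured.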

Other observations

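Other stress programmes, measured in the same libraries, held no listed gene that met the 2-fold criterion under either microRNA. Of all genes, 4.74% met it under hsa-miR-199a-3p and 0.585% under hsa-miR-590-3p. Beside the counts that follow, 40.2% of all genes lay above and 41.9% below both controls under hsa-miR-199a-3p, and 35.6% and 36.6% under hsa-miR-590-3p. Of 14 genes of the cytosolic heat shock response, 6 lay above and 5 below both controls under hsa-miR-199a-3p, and 3 above and 6 below under hsa-miR-590-3p. With total-count scaling these counts were 8 and 5, and 6 and 3. The medians were 0.15 and -0.05 for hsa-miR-199a-3p, and 0.02 and -0.17 for hsa-miR-590-3p. Hspa8, the constitutive cytosolic chaperone, was at 0.20 and -0.06 under hsa-miR-199a-3p, and Hsp90ab1, the cytosolic relative of Hsp90b1, at 0.38 and 0.14, where Hsp90b1 stood at -0.75 and -0.60. Among 10 mitochondrial chaperones and proteases, 7 lay below both controls under hsa-miR-199a-3p and 5 under hsa-miR-590-3p, and Hspa9, the mitochondrial relative of BiP, stood at -0.32 and -0.47, and at -0.26 and -0.41. Hspd1, the mitochondrial chaperonin, stood at 0.20 and -0.23 and at 0.46 and 0.03. Of 10 genes of the NRF2 and redox list, 5 lay above and 3 below both controls under hsa-miR-199a-3p, and 2 above and 6 below under hsa-miR-590-3p, counts that total-count scaling moved to 6 and 3, and 3 and 4. Prdx1, a peroxiredoxin, was at 0.50 and 0.35 with hsa-miR-199a-3p, while Sqstm1, an autophagy receptor, stood at 0.08 and -0.17.

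Among 17 ATF, C/EBP and related factors, 5 lay above and 9 below both controls under hsa-miR-199a-3p, and 6 above and 6 below under hsa-miR-590-3p. With total-count scaling these counts were 7 and 8, and 10 and 5. Atf5, a relative of Atf4 that is translated under eIF2 phosphorylation, was at 0.22 and -0.15 under hsa-miR-199a-3p and at -0.30 and -0.66 under hsa-miR-590-3p, although 14.6% of its reads were placed uniquely. Nfe2l1, the most abundant of these factors, stood at 0.10 and 0.01, and at -0.13 and -0.22, with 1.19% of its reads placed uniquely.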
